A study of Mus musculus with 4 samples.

Results

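Of the 1629 gene identifiers with a NAT10 peak in this series, 235 (14.4%) had at least 1 peak in the authors' exon class and at least 1 in the 3' UTR class, and none in the 5' UTR class. These genes were chosen by that class column alone, and all of their rows were kept. They carried 1114 of the 4172 distinct peaks (26.7%), 533 of them in exons and 581 in 3' UTRs. Since the classes chose the genes, the presence of both classes is a description and is not tested.

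The data are an eCLIP experiment on 32D cells, a mouse bone marrow line that needs interleukin-3 to grow. There were 2 libraries made from immunoprecipitates with a NAT10 antibody and 2 input libraries made with no antibody. All came from wild-type cells kept in medium with 10% serum and interleukin-3 at 10 ng/mL, which were crosslinked with ultraviolet light of 254 nm at 150 mJ. Separate cultures are not stated for the libraries of a group, and all come from 1 cell line. The authors summarised the 4 libraries in 1 list of peaks on GRCm39, with a fold and a p for each peak and no value per library. The fold was read as log2 of immunoprecipitate over input and the p as -log10 p, and both are the authors' own values. No replicate error can therefore be attached to any value below, no difference was tested, and counts and medians stand as descriptions of this list. Of 11 haematopoietic and myeloid marker genes 5 had a peak, namely Runx1, Gata2, Csf2rb, Srgn and Ptprc, and a missing peak does not show a missing RNA.

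NAT10 is the enzyme that acetylates cytidine to form ac4C in ribosomal RNA, transfer RNA and messenger RNA. In eCLIP a protein is crosslinked to the RNA it touches, the complex is pulled down, and enrichment of short RNA fragments over input marks the contact. The coding part of an mRNA is read by ribosomes, while the 3' UTR holds sites for proteins and microRNAs that set the stability, translation and location of the message. What the authors' exon class holds, beyond not being called a UTR, is not stated, so exon peaks are not taken here as coding. Sequences of the peaks are not shown, since no genome of the files' build was used here.

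Most of the genes had few peaks. The median was 4 peaks per gene (interquartile range 2 to 5), the lowest number was 2 and the highest 25. Just inside the rule were 63 genes with exactly 1 exon peak and 1 3' UTR peak. Their median log2 fold was 4.44 for the exon peak and 4.25 for the 3' UTR peak. Just outside it were 32 genes that also had a 5' UTR peak, 21 of them only 1. The peaks of these 32 genes had median log2 folds of 4.49 in exons, 4.93 in 3' UTRs and 4.50 in 5' UTRs. A further 352 genes with 2 or more peaks had all of them in the 3' UTR, and 157 had all of them in exons. Among the 235 genes, 82 had more 3' UTR peaks than exon peaks, 69 had more exon peaks, and 84 had equal numbers. The genes lay on 20 chromosomes, 112 on the plus and 123 on the minus strand, and none was mitochondrial.

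The 3' UTR peaks of these genes had the higher median fold. It stood at 4.80 on the log2 scale (interquartile range 4.31 to 5.54), which is 27.8-fold, and 4.60 in exons (4.19 to 5.31), which is 24.3-fold. Over the whole list the medians were 4.64 and 4.55. With peaks of a -log10 p of 5 or more alone, genes of this kind had medians of 5.26 in 3' UTRs and 5.25 in exons. The difference between the classes thus depended on the limit set on the peaks. A log2 fold of 5 or more was reached by 249 of the 581 3' UTR peaks (42.9%), against 35.4% of all 3' UTR peaks in the list. Among exon peaks it was 177 of 533 (33.2%), against 30.9%. Both classes together gave 426 of 1114 (38.2%), against 33.3% of the whole list. The 3' UTR peaks of genes bound in the 3' UTR alone had a median of 4.58, and the exon peaks of genes bound in exons alone 4.55. The 3' UTR peaks of genes with a 5' UTR peak were nearer to those described here, with a median of 4.67, 40.4% at a log2 fold of 5 or more and a median -log10 p of 7.19. The median -log10 p was 7.10 in 3' UTRs and 5.38 in exons, where the whole list stood at 5.68 in each class. None of the 1114 peaks reached the ceiling of 400 in that column, at which 34 peaks of the list stood, and the highest value was 146. Median widths were 66 nt in exons and 76 nt in 3' UTRs, against 69 and 86 nt over the whole list.

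The strongest peaks of the classes were compared within each gene. The strongest 3' UTR peak exceeded the strongest exon peak in 129 genes, the exon peak was stronger in 105, and in Srsf5 the values were equal. The median difference, 3' UTR minus exon, was 0.11 on the log2 scale (interquartile range -0.49 to 0.91). In 158 genes the classes lay within 1 log2 unit of each other. The folds of all peaks in the list were also narrowly spread, with an interquartile range of 4.19 to 5.29. No such count was made for peaks of different genes, so the 158 do not show a likeness within genes. In 40 genes both reached a log2 fold of 5, in 66 only the 3' UTR did, in 38 only the exon did, and in 91 neither did. The strongest value of a class moved with the number of its peaks: the median difference was 0.91 in genes with more 3' UTR peaks, -0.09 in genes with equal numbers and -0.32 in genes with more exon peaks. In the 63 genes with 1 peak of each class the direction was opposite to that of all 235 genes, with a median of -0.15, the exon peak being stronger in 39 and the 3' UTR peak in 24. Across the 235 genes the strongest exon and 3' UTR folds were weakly related (Pearson's r = 0.20, Spearman's rho = 0.19), and all of these points share the same 4 libraries.

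**Figure D1:**
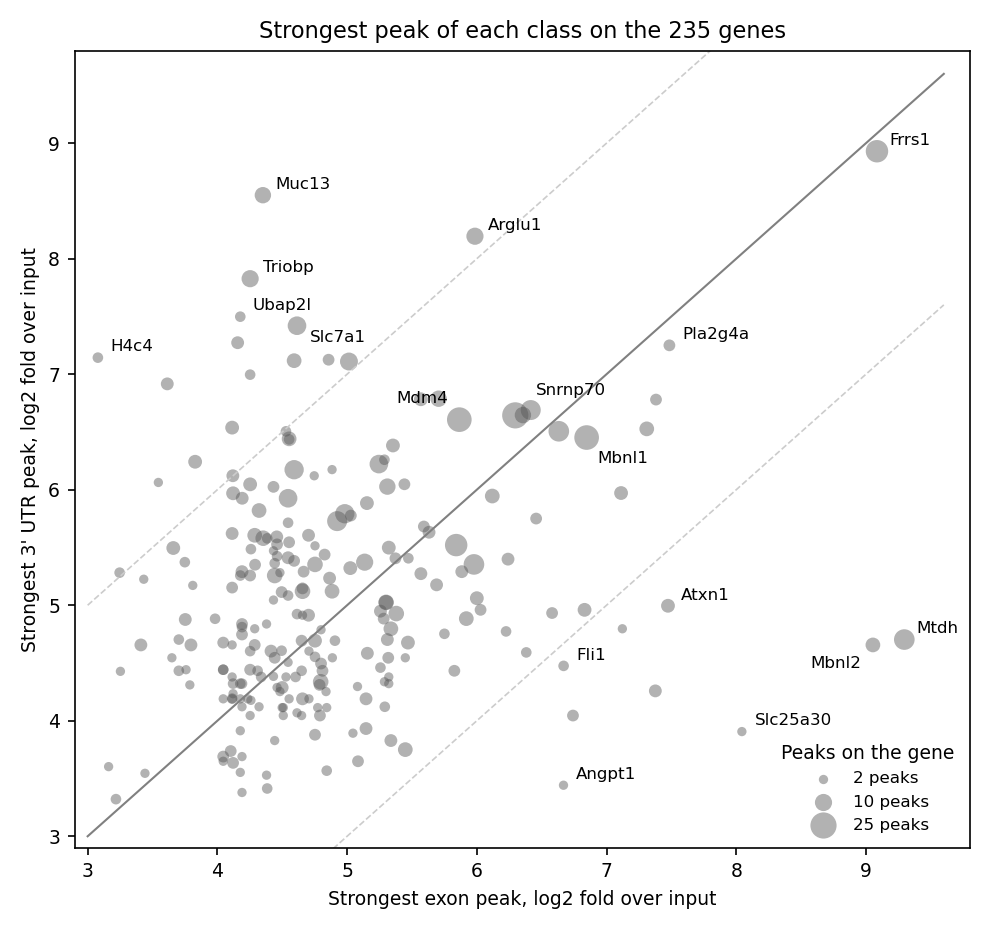
Each point is 1 of the 235 genes, with the log2 fold over input of its strongest exon peak on the horizontal axis, that of its strongest 3' UTR peak on the vertical axis, and an area that grows with the number of peaks. The solid line marks equal folds and the dashed lines a difference of 2; Mtdh (9.30 and 4.70) and Mbnl2 (9.05 and 4.66) lie farthest below the solid line, Muc13 (4.35 and 8.55) lies farthest above it, and Frrs1 (9.08 and 8.93) is high in both classes.

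Differences of more than 2 log2 units were found in 26 genes, 17 with the stronger peak in the 3' UTR and 9 with it in an exon. The exon side was led by Mtdh, Mbnl2, Slc25a30 and Angpt1. In that order, the -log10 p of their strongest 3' UTR peaks was 5.38, 5.29, 9.24 and 3.82. Angpt1 would thus keep no 3' UTR peak under a limit of 5 on the -log10 p. Mtdh (ENSMUSG00000022255), which encodes metadherin, a membrane protein that also binds RNA, held the strongest peak of all 235 genes, whose fold was 9.30 on the log2 scale and whose -log10 p was 146, at chromosome 15, 34117320 to 34117463. Its 13 exon peaks ran from 4.05 to 9.30, and 10 of them touched each other in a stretch of 482 nt. The 2 peaks in its 3' UTR reached 3.50 and 4.70. In Mtdh the high folds were thus packed into a short exonic stretch.

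Mbnl2 (ENSMUSG00000022139), a muscleblind protein that steers alternative splicing, had the same arrangement. Of its 6 exon peaks 4 touched each other over 382 nt at chromosome 14, 120564151 to 120564532, with log2 folds from 8.23 to 9.05. Its other exon peaks reached 4.55 and 4.71, and its only 3' UTR peak 4.66. Slc25a30, a carrier protein of the mitochondrial inner membrane, had 1 peak of each class. The exon peak was 343 nt wide with a log2 fold of 8.04 at chromosome 14, 76004125 to 76004467, and the 3' UTR peak reached 3.91. Angpt1, the ligand of the receptor Tie2 on stem and endothelial cells, had an exon peak of 6.67 at chromosome 15, 42497366 to 42497547, and a 3' UTR peak of 3.44. Atxn1, which encodes the transcriptional regulator ataxin-1, had 5 exon peaks from 5.14 to 7.47 within 744 nt, and its only 3' UTR peak lay below all of them.

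The 3' UTR side was led by Muc13, H4c4, Triobp and Ubap2l. In that order, the -log10 p of their strongest exon peaks was 16.5, 22.0, 3.68 and 3.27. Triobp and Ubap2l would thus keep no exon peak under a limit of 5 on the -log10 p. Muc13, a transmembrane mucin, had 8 3' UTR peaks with log2 folds from 6.84 to 8.55, all touching in a stretch of 383 nt at chromosome 16, 33639902 to 33640284. Its exon peak reached 4.35. Triobp, an actin-binding protein, had 8 3' UTR peaks from 6.03 to 7.83, of which 7 touched over 446 nt, and 2 exon peaks of 4.25 each. Ubap2l, a protein of stress granules, had 2 3' UTR peaks of 7.17 and 7.50 and an exon peak of 4.18. Slc7a1, a transporter of cationic amino acids, had 11 3' UTR peaks from 4.19 to 7.42 and an exon peak of 4.61. In Muc13, Triobp and Ubap2l every 3' UTR peak was above every exon peak, whereas in Slc7a1 the weakest 3' UTR peaks lay below the exon peak.

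Some genes had peaks at or above a log2 fold of 5 in both parts. Frrs1, which encodes a ferric reductase of membranes, had 8 exon peaks from 6.29 to 9.08 and 10 3' UTR peaks from 5.62 to 8.93. Its strongest exon peak lay at chromosome 3, 116694215 to 116694299, and its strongest 3' UTR peak at 116697595 to 116697703. Pla2g4a, a phospholipase that releases arachidonic acid, had exon peaks of 4.12 and 7.48 and 3' UTR peaks of 6.45 and 7.25. Arglu1, a protein linked to splicing and transcription, had 5 exon peaks from 4.42 to 5.99 and 5 3' UTR peaks from 5.08 to 8.19. It was also among the 17 genes whose 3' UTR peak was stronger by more than 2 log2 units. The ranges of the classes overlapped in each of these 3 genes.

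**Figure D2:**
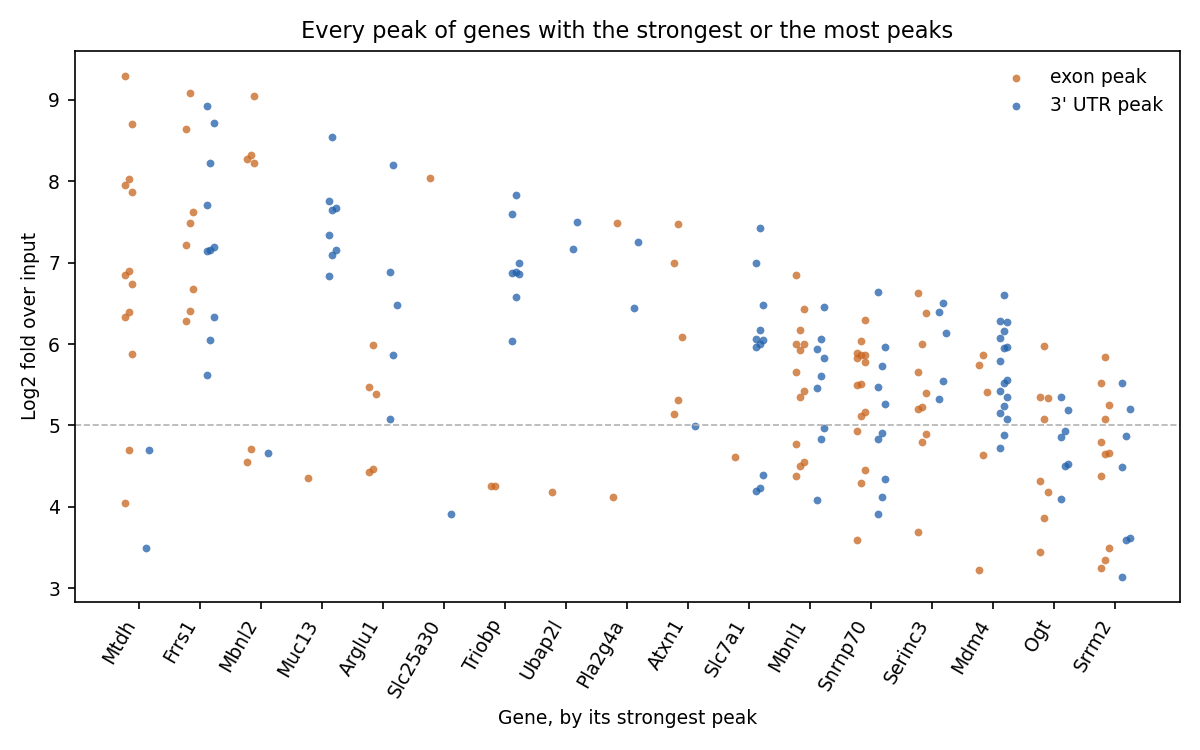
Every listed peak of 17 of the genes with the strongest or the most peaks, by log2 fold over input, with exon peaks in orange and 3' UTR peaks in blue; the dashed line marks a log2 fold of 5. Mtdh and Mbnl2 have their high peaks in exons, Muc13, Triobp and Ubap2l in the 3' UTR, and the 2 colours overlap in Frrs1, Mbnl1, Snrnp70, Mdm4 and Ogt.

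The genes with the most peaks included several regulators of splicing. Snrnp70, the protein of the U1 splicing particle that contacts U1 RNA, had 15 exon peaks from 3.59 to 6.30 and 10 3' UTR peaks from 3.91 to 6.64. Mdm4, which restrains p53, had 17 3' UTR peaks from 4.73 to 6.61 and 5 exon peaks from 3.23 to 5.87, and 15 of the 3' UTR peaks reached 5. Mbnl1, a relative of Mbnl2, had 13 exon peaks from 4.38 to 6.85 and 9 3' UTR peaks from 4.08 to 6.45. Srrm2, a scaffold of nuclear speckles, had 11 exon peaks from 3.25 to 5.84 and 7 3' UTR peaks from 3.14 to 5.52. Ogt, the enzyme that adds O-GlcNAc to proteins, had 8 exon peaks from 3.45 to 5.98 and 7 3' UTR peaks from 4.10 to 5.35. Serinc3, a membrane protein that restricts retroviruses, had 10 exon peaks from 3.69 to 6.63 and 5 3' UTR peaks from 5.32 to 6.51. In each of these 6 genes the folds of the classes overlapped.

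Some peaks touched others of their class. After touching peaks of a gene and class were joined, 458 exon regions and 468 3' UTR regions remained, so the share of the 3' UTR was 50.5% of regions and 52.2% of peaks. Joined regions covered 39955 nt in exons and 48904 nt in 3' UTRs, with medians of 127 and 163 nt per gene. Stretches of 5 or more pieces were found on 8 occasions. In exons these were the stretches of Mtdh and one of 376 nt in Mbnl1. In 3' UTRs they were those of Muc13 and Triobp, a stretch of 326 nt in Frrs1 (5.62 to 8.93), one of 371 nt in Mdm4, one of 248 nt in Cited2, a coactivator needed by blood stem cells, and one of 219 nt in Ogt.

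**Figure D3:**
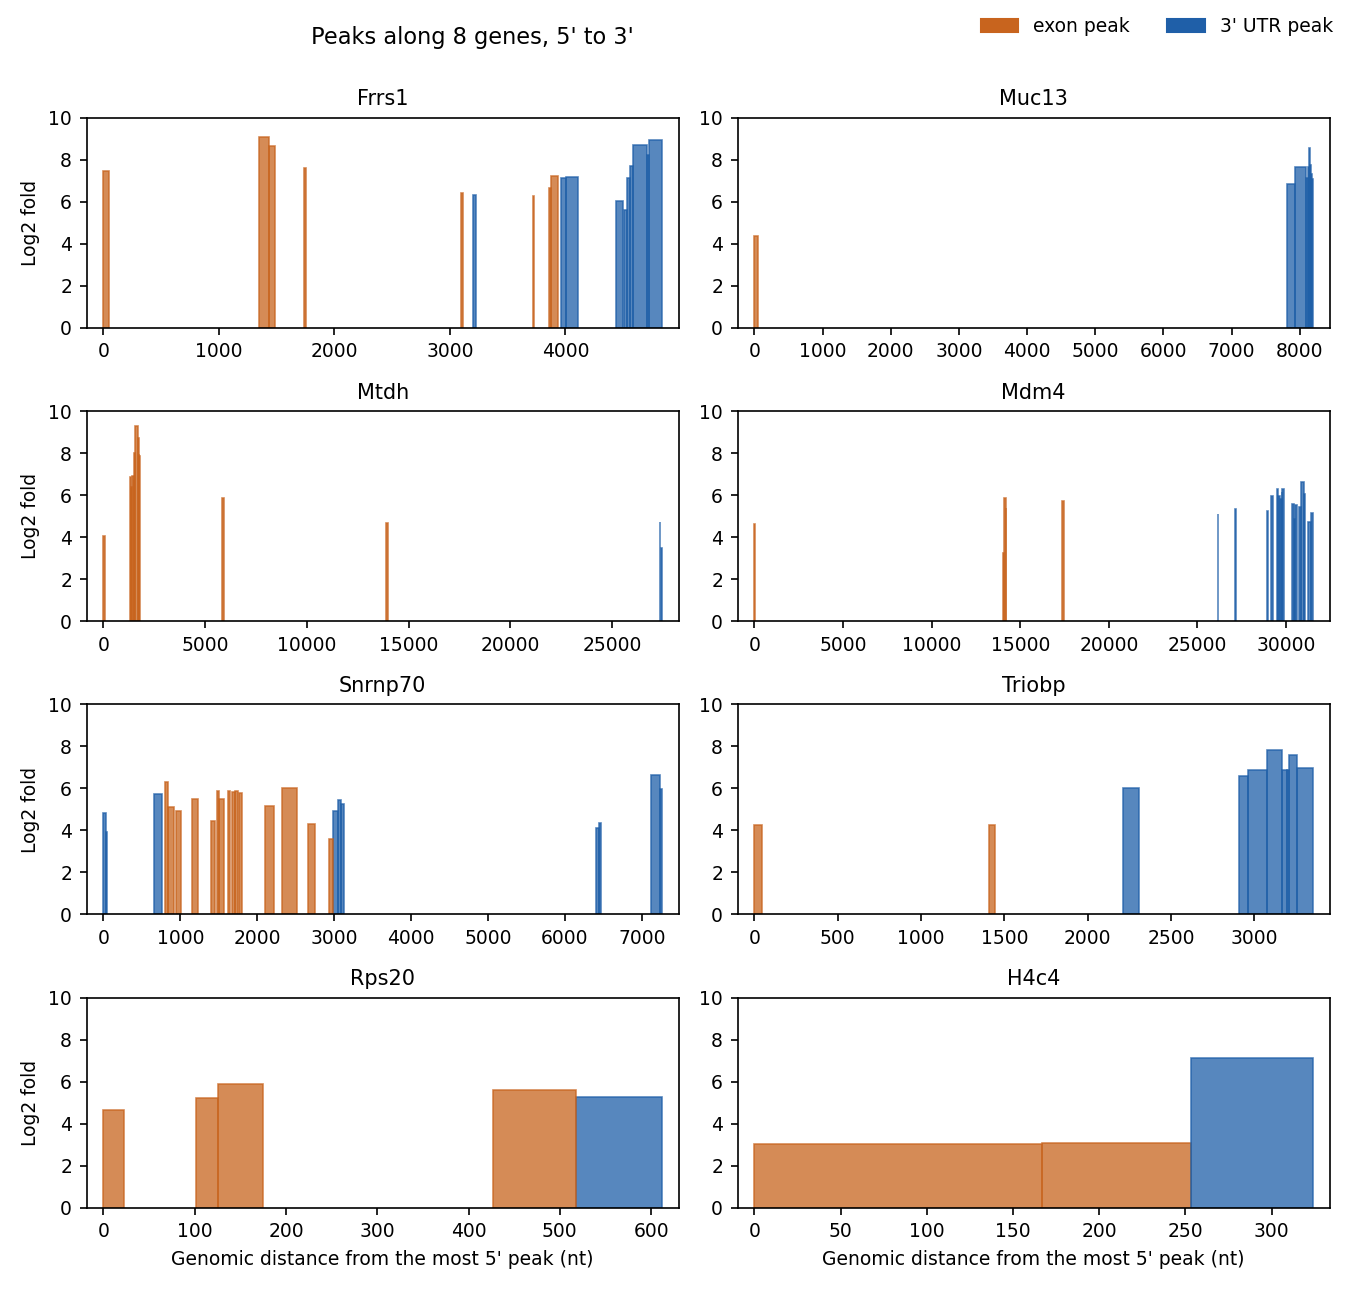
Peaks of 8 genes drawn from 5' to 3' by genomic distance in nt from the most 5' peak (introns included), with the log2 fold over input as height, exon peaks in orange and 3' UTR peaks in blue. In Muc13, Triobp and Mdm4 the 3' UTR peaks form the dense block, in Mtdh the exon peaks do, in Snrnp70 peaks of the 3' UTR class lie on both sides of the exon peaks, and in Rps20 and H4c4 the classes meet.

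The order of the peaks along the strand mostly followed the class names. In 214 of the 235 genes every 3' UTR peak lay downstream of every exon peak. The 21 exceptions included Snrnp70, with peaks of the 3' UTR class on either side of its exon peaks, Srrm2, in which the classes alternated, and Frrs1, with 1 3' UTR peak among its exon peaks. They also included the identifiers Lilr4b and Lilrb4a, of leukocyte immunoglobulin-like receptors, and Gm49339. Of its 8 peaks 6 were also listed under Lilr4b or Lilrb4a, so these 3 identifiers do not give 3 independent genes. Peaks shared with a second identifier also occurred in Zbed6 (both of its peaks), Flt3l and Rbm4 (1 each).

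The nearest exon and 3' UTR peaks of a gene were usually far apart in the genome. The median gap was 5061 nt (interquartile range 1090 to 14381 nt), with introns counted, and 77 genes had a gap above 10000 nt. Gaps above 100000 nt occurred in 7 genes, among them Angpt1, Atxn1 and Ikzf2. In 12 genes the classes touched, in 21 the gap was at most 50 nt and in 32 at most 200 nt. The difference in strength was alike in near and far genes, with a median of 0.10 in the 54 genes with a gap of at most 1000 nt and 0.11 in the 77 genes above 10000 nt.

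**Figure D4:**
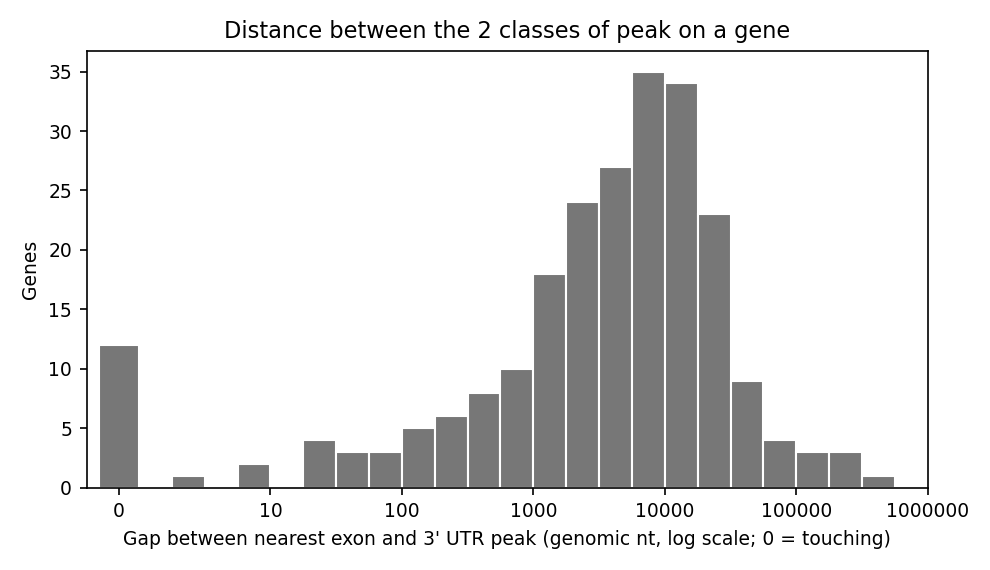
The number of genes by the gap between their nearest exon and 3' UTR peaks, in genomic nt with introns included, on a log axis with touching pairs drawn at 0. Most of the 235 genes lie between 1000 and 100000 nt, and a separate bar holds the 12 genes in which the classes touch.

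The touching group held the histone genes H4c4, H3c1 and H4c3, the ribosomal protein genes Rps20, Rps27 and Rpl39, Ifitm1, Prtn3, Pkp4, Snrnp70, Srrm2 and Gm49339, which are named here in full. H4c4 encodes histone H4 and belongs to the replication-dependent histones, whose mRNAs end in a stem-loop in place of a poly(A) tail. Its 3' UTR peak of 71 nt reached 7.14 at chromosome 13, 23765877 to 23765947, while the exon peaks directly upstream reached 3.04 and 3.08. The -log10 p of these H4c4 peaks was 32.5, 27.6 and 22.0, so the weak exon folds came with high p scores. Reads of near-identical histone copies may not be assigned to the right gene. In Rps20, a protein of the small ribosomal subunit, the touching peaks were alike, with 5.61 in the exon and 5.29 in the 3' UTR. In Ifitm1, an interferon-induced antiviral membrane protein, they were 5.59 and 5.43. In Rpl39, of the large subunit, they were 4.46 and 5.59, and in Gm49339 5.05 and 5.02. Over the 12 touching pairs the median was 4.58 in the exon and 4.61 in the 3' UTR.

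Gene groups were read from 14 lists, which were described by counts and not tested. Among cytosolic ribosomal proteins 11 of the 71 genes with any peak had both classes, a share of 15.5%, near the 14.4% of all bound genes. The strongest were Rps13 (exon 4.19, 3' UTR 5.93) and Rps20 (exon 5.88, 3' UTR 5.29), and the 3' UTR was stronger in 6 and the exon in 5. For these genes reads can be shared with pseudogenes. Translation factors had 2 of 20 (10%), Eif1, which helps to select the start codon (5.28 and 4.88), and Eif3a, the scaffold of the initiation factor eIF3 (4.66 and 5.12). Shares of lists were not matched for the number of peaks per gene and were not tested.

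Of the hnRNP proteins and their relatives, which coat pre-mRNA, 11 of 24 bound genes had both classes (45.8%, against 14.4% of all bound genes). The 14.4% also counts genes with 1 peak, which cannot meet the rule. Of genes with 2 or more peaks and none in the 5' UTR, 235 had both classes, 352 only the 3' UTR and 157 only exons. List shares were not matched for this. The 3' UTR was stronger in 9 of them, the median difference was 0.97, and the same median over all 235 genes was 0.11. Hnrnpu, a scaffold of nuclear RNA and chromatin, reached 7.27 in the 3' UTR at chromosome 1, 178156626 to 178156795, and 4.16 in an exon. Hnrnpa2b1, a splicing repressor, reached 6.79 and 5.71. Hnrnph1 (4.80 and 5.34) and Hnrnpa3 (4.34 and 4.80) had the stronger peak in an exon. The list of spliceosome and SR proteins also held the muscleblind splicing regulators Mbnl1 and Mbnl2, which are neither. Of its 35 bound genes 13 had both classes (37.1%), among them Mbnl2, Mbnl1 and Snrnp70, with a median difference of 0.18. Factors of mRNA decay and modification had 4 of 19 (21.1%). Smg1, the kinase of nonsense-mediated decay, had exon peaks of 6.22 and 6.23 and a 3' UTR peak of 4.77. Elavl1, the HuR protein that stabilises AU-rich messages, reached 4.59 in exons and 5.38 in the 3' UTR.

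Members of the list of blood stem cell regulators split evenly. Cited2, named above, was not on that list (exon 3.83, 3' UTR 6.24). Of the 16 bound genes on that list 6 had both classes (37.5%), with the 3' UTR stronger in Myb, Ikzf2 and Ldb1 and the exon stronger in Fli1, Angpt1 and Cbfa2t3. Fli1, an ETS transcription factor, had exon peaks of 6.17 and 6.67 at the upstream end of its peaks and a 3' UTR peak of 4.48, 87275 nt away. In Fli1 the -log10 p ran the other way, 22.4 for the strongest exon peak and 41.3 for the 3' UTR peak. A wider count used the highest -log10 p of any peak of each class, which need not be the peak with the highest fold. By that measure the reversal was seen in Fli1 and H2az1 among the 26 genes with a difference above 2. Over all 235 genes the class with the higher strongest fold had the lower highest -log10 p in 26. Of 12 bound genes of interleukin-3 signalling 0 met the rule, a number too small to set apart from the 14.4% of all bound genes. Genes of p53 and apoptosis had 3 of 13 (23.1%), among them Mdm4 and the initiator caspase gene Casp8 (exon 6.46, 3' UTR 5.75).

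Among structural and housekeeping genes the actin cytoskeleton had 6 of 24 (25%, against 14.4% of all bound genes). The strongest 3' UTR peak was the higher in 5 of them, with a median difference of 1.08. These genes had 13 exon peaks and 21 3' UTR peaks, and the strongest value moved with the number of peaks. By the median peak the difference was 2.12 in Myh9, 1.84 in Pfn1 and 0.84 in Cfl1. It was 0.13 in Msn, -0.34 in Lcp1 and -0.81 in Capza2. Myh9, the heavy chain of non-muscle myosin, had 4 touching 3' UTR peaks from 6.34 to 7.12 over 207 nt and 3 exon peaks from 3.62 to 4.59. Pfn1, the actin-binding protein profilin, had 3 peaks of each class, up to 5.50 in the 3' UTR and 3.66 in exons. Chaperones had 7 of 19 (36.8%) and a median difference of -0.21. Canx, the lectin chaperone calnexin, reached 6.78 in the 3' UTR and 5.57 in exons, and Hsp90aa1 reached 5.06 and 6.00. Replication-dependent histones had 5 of 28 (17.9%), of which H3c6 (exon 5.08, 3' UTR 4.30) followed H4c4 in strength. Membrane traffic genes had 4 of 34 (11.8%), led by the clathrin heavy chain gene Cltc (exon 4.25, 3' UTR 6.05) and the sorting nexin gene Snx32 (4.75 and 4.55). Chromatin modifiers had 2 of 22 (9.1%), Setd5 (4.44 and 4.55) and Chd4 (4.05 and 3.65). Ubiquitin ligases had 2 of 14 (14.3%), among them Mdm4.

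**Figure D5:**
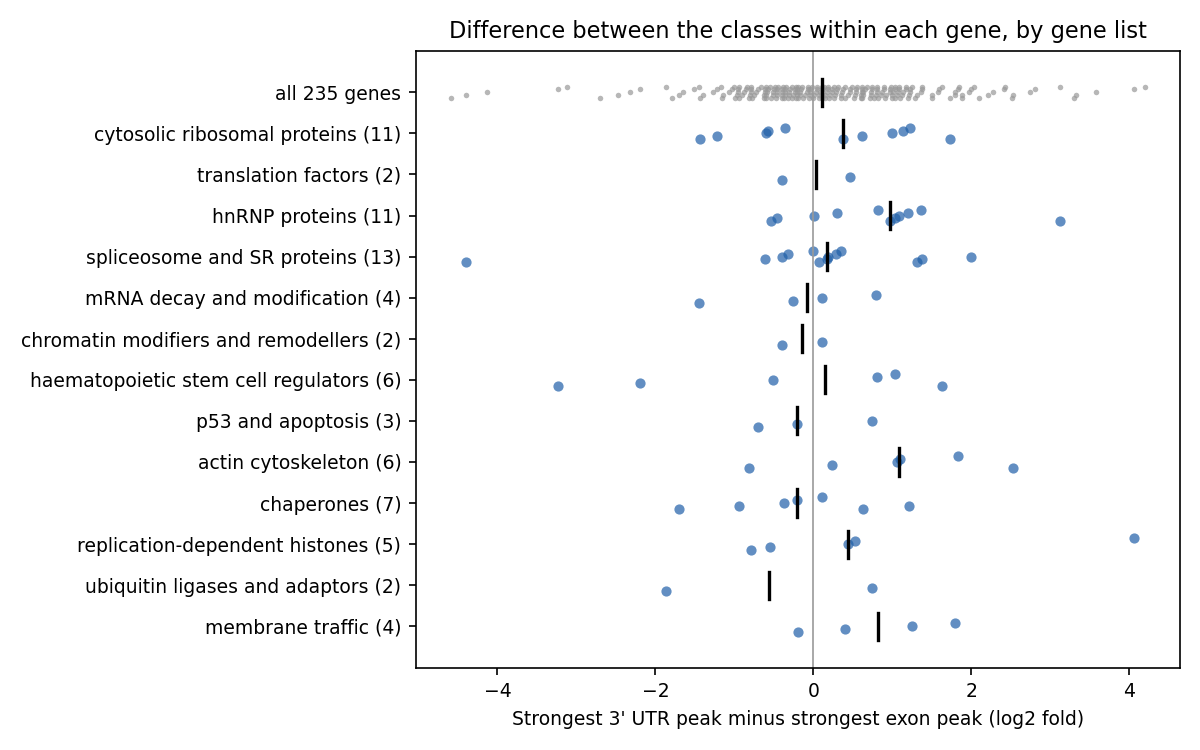
The strongest 3' UTR peak minus the strongest exon peak, in log2 units, for each gene of 13 lists that had a member and for all 235 genes, with the median of each list as a black bar and the number of genes in brackets. The hnRNP list (median 0.97) and the actin list (1.08) lie mostly to the right of 0, the spliceosome list runs from Mbnl2 at -4.40 to Srsf2 on the other side of 0, and the lists of 2 to 5 genes are too small to read a direction from.

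The fold of 943 of the 1114 peaks (84.6%) took values expected of ratios over 1 input read in each of the 2 input libraries, against 82.8% in the whole list. The share was 84.6% in exons and 84.7% in 3' UTRs. Such steps cannot tell 1 input read from a constant set where there was no read. Larger input counts can also give values on these steps, so the share is not a count of peaks with single input reads. At a log2 fold of 4.05 the -log10 p was 3.27 in the Chd4 exon peak and 5.61 in a Cnbp 3' UTR peak. Where the input was 1 read or a constant, the fold follows the immunoprecipitate reads alone. It is then not corrected for the amount of each RNA. For how many peaks this holds is not known. The read depth behind each peak is otherwise unknown.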

How the data were processed

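NAT10 immunoprecipitates (2 libraries) and inputs (2 libraries) of 32D cells were joined by the authors in 1 peak list. Per the submitters' processing notes the genome build was GRCm39. The aligner, peak caller, cut-offs and joining of replicates are not stated in the labels. Per the file headers the deposited list has a p column, read as -log10 p because its values run from 3.07 to 400. Its fold column, 3.00 to 11.00 over the whole list, was read as the deposited log2 fold of immunoprecipitate over input, since most values follow steps of whole reads on that scale. The log base and any adjustment are not stated. Start positions, which the deposited list counts from 0, were raised by 1.

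Classes were stripped and lower-cased, and each peak name was counted once, or under each identifier in gene counts. Gaps, joined stretches, medians and quartiles were computed with Python 3.11.15, pandas 2.3.3, numpy 2.4.6 and scipy 1.17.1, and the scripts were tested on simulated data. A fold fitted single input reads when 2 to the power of its doubled log2 value was a whole multiple of a common unit within 0.01. Some folds over larger input counts also meet this criterion. Of 235 symbols 233 matched the RefSeq table of GRCm38.p6, used for names only. Intervals behind the comparison of settings are of 95% and cover counting error only.

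Members and gene lists were chosen with earlier results of these data known. Named genes are the 12 with the strongest peak, the 8 with the most peaks, the 4 with the largest difference in each direction, the 5 with the smallest gap and up to 2 per list. Genes named beyond this rule, such as those of short complete groups, were chosen after their values were seen. A few genes that the rule names are not reported here.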

Additional observations from a re-analysis of the deposited data

How the results depend on the processing

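With the peaks above the median fold of the list alone, 85 genes with 422 peaks met the rule, of which 78 were among the 235. With a -log10 p of 5 or more, 96 genes with 518 peaks did, of which 94 were among them, and the medians were 5.25 in exons and 5.26 in 3' UTRs. The class medians were thus nearly equal under that limit, which also removes peaks of low fold. Why they came closer was not tested. Without peaks listed under 2 identifiers 232 genes remained. The within-gene difference was 0.11 by the median peak, 0.11 by the mean, 0.10 by the peak with the highest -log10 p and 0.14 without genes that hold a shared peak, an alternative chosen after seeing the data. In genes with 1 peak of each class it was -0.15, and the cause was not tested. Joined regions had median widths of 74 nt in exons and 91.5 nt in 3' UTRs. A gap of up to 50 nt gave 21 neighbouring pairs and one of up to 200 nt gave 32, in place of 12. The share of the 3' UTR was 50.5% of regions and 55.0% of bases. Gene lists matched by synonym gave the same 75 genes as by symbol. No paired analysis was possible because the list holds no value per library, and for the same reason no replicate could be left out.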

Other observations

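Further groups of related genes stand among the 235, chosen after their values were seen and given as values only. Amino acid transport was represented by Slc7a1, Slc38a2, Slc3a2, Slc7a5 and Slc7a11, the last of which imports cystine. Slc38a2 had an exon peak of 4.18 and a strongest 3' UTR peak of 5.26. Slc7a5 (3.75 and 4.88) and Slc3a2 (3.98 and 4.88) together form a transporter of large neutral amino acids. In Slc7a11 the exon peak was stronger (4.84 and 4.25). Genes of histone variants and chromosome structure were also among them. Cbx5, the heterochromatin protein HP1-alpha, had 10 3' UTR peaks up to 7.11 and an exon peak of 5.01. H2az1, a histone H2A variant, reached 5.28 in the 3' UTR and 3.25 in its exon peak, and Top2a, a DNA topoisomerase, 5.88 and 5.15. Top2b reached 4.31 and 4.79.

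Genes of blood cell surfaces, granules and adhesion were present too. Cd53, a tetraspanin of leukocytes, reached 7.13 in the 3' UTR and 4.86 in an exon. Slc18a2, which loads monoamines into granules, reached 6.69 and 6.42, and Prtn3, a serine protease of myeloid granules, 3.69 and 4.19. Of other RNA-binding proteins, Rsrp1 had a strongest exon peak of 7.31 and a 3' UTR peak of 6.53, and for Rbm26 the strongest were 6.24 and 5.40. Of genes of the endoplasmic reticulum, Vmp1 reached 7.11 in an exon and Vapa 6.92 in the 3' UTR. Ppp3ca, a catalytic subunit of calcineurin, reached 6.54 in the 3' UTR and 4.11 in an exon.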
